A study of Mus musculus with 28 samples.

Results

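The comparison described here sets p66-/- mouse embryonic fibroblasts (MEFs) against wild-type (WT) MEFs when both had been exposed to hydrogen peroxide (H2O2). It rests on 8 of the 28 arrays of the series, the 4 arrays of H2O2-treated p66-/- cells and the 4 of H2O2-treated WT cells, taken by their labels, and on all 45037 probe sets that are not array controls. MEFs are primary connective tissue cells grown out of dissociated embryos, here at day 13.5 of development, and both genotypes were used at passage 2 and kept in 400 μM H2O2 for 4 h. The p66-/- animals lack the p66 product of Shc1 in every cell. The labels give the strain as C57Bl/6 and the study's methods give sv/129 for the array cells, and this could not be settled here. The labels call the 4 arrays of a group biological replicates and the methods speak of independent RNA preparations, but nothing ties an array to an embryo, litter or day. The other groups were, as labelled, untreated WT, p66-/- and p53-/- cells, H2O2-treated p53-/- cells, and WT and p66-/- cells given doxorubicin. They enter the estimate of spread and the choice of the probe set that stands for each gene in the lists. Untreated WT and p66-/- levels also enter the test of dependence on H2O2 and are quoted for reference.

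Shc1 encodes adaptor proteins that pass signals from activated growth factor receptors to Ras and the ERK kinases. The longest of them, p66, carries an additional amino-terminal region, becomes serine-phosphorylated in stressed cells and is known for promoting oxidant production at mitochondria and cell death after oxidative stress. In fibroblasts an oxidant pulse is known to raise p53 targets, antioxidant genes and stress transcription factors and to hold back cell division. The levels compared here say which of those transcripts stood at different heights in stressed cells with and without p66.

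Values are log2 levels as the authors normalised them, so that a difference of 1 is 2-fold. A probe set was called when the adjusted p of limma's moderated test was under 0.05 over all 45037 probe sets, with 8 group means fitted to the 28 arrays. By that rule 80 probe sets differed between the stressed genotypes (0.178% of those tested), 66 higher in p66-/- cells (0.147%) and 14 lower (0.0311%). The higher ones stood for 46 named genes and the lower ones for 8. Blocking on the replicate number gave 616 (1.37%), 451 higher and 165 lower, with all 80 among them. Fitted to the 8 H2O2 arrays alone, with no other group to estimate the spread, the same test called 0 probe sets, although 3757 had an unadjusted p under 0.05. By the study's own thresholds, an unadjusted p under 0.05 and at least 1.5-fold, 1110 probe sets differed (2.46%), of which 862 were higher in p66-/- cells (1.91%) and 248 lower (0.551%). The median difference over all probe sets was -0.04.

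**Figure D1:**
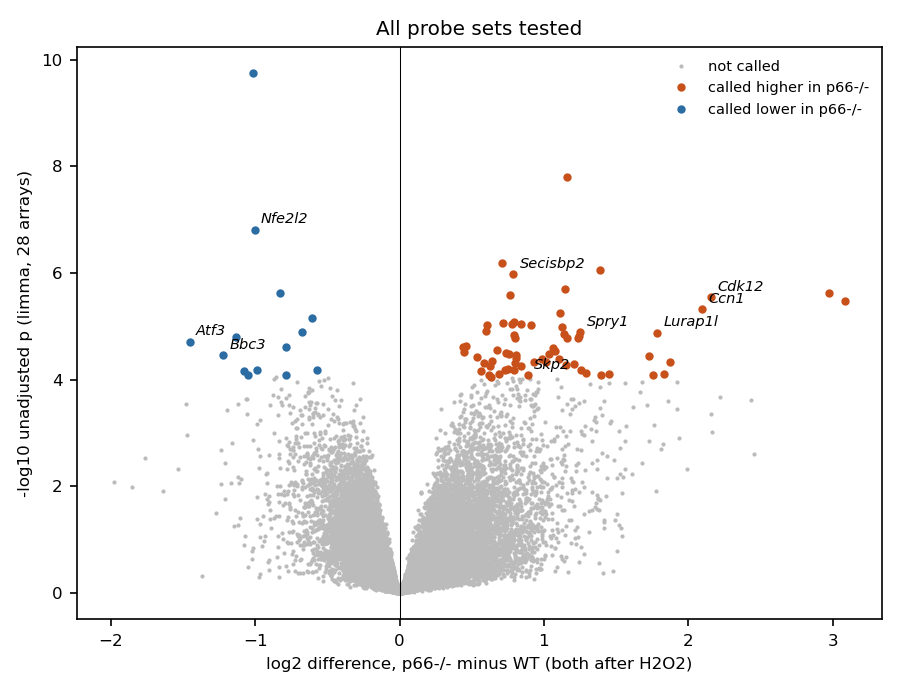
Difference in level between p66-/- and WT MEFs after H2O2 (x axis, log2) against the unadjusted p of the test on a -log10 scale (y axis), 1 point per probe set. The 66 called higher (orange) reach a difference of 3.09 and the 14 called lower (blue) reach -1.45.

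The 8 arrays differed among themselves in ways the genotype did not set. Arrays numbered 1 and 2 stood apart from those numbered 3 and 4 along the first principal component, which held 56.2% of the variance, and in the spiked control Lys, at 6.57 to 6.84 in the former and 4.15 to 5.17 in the latter, in both genotypes. Replicates 3 and 4 of the p66-/- cells were the most alike of all pairs of arrays in the series (SD of their differences 0.16, next pair 0.18). Counted as 1 sample, which was chosen after seeing the data, they left 8 calls. Within the p66-/- group, replicate 2 lay nearest to the WT arrays at 53 of the 66 probe sets called higher and at 13 of the 14 called lower. Without it 598 probe sets were called, whereas without replicate 1, 3 or 4 of the p66-/- group 5, 8 and 8 were, and without WT replicates 1 to 4 in turn 50, 158, 34 and 34. All 80 kept their sign in each of these fits, which share most of the arrays that chose them. Replicate 1 of the p66-/- group also had the lowest signal of the 18S RNA control, 8.23 against 9.01 to 10.1 on the other arrays. What part these features had in the calls was not tested.

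Shc1 itself, at chr3:89418551-89430029 of GRCm38.p6, was read by a pair of probe sets. The brighter gave 7.61, 7.88, 8.13 and 7.80 in the WT replicates 1 to 4 and 7.95, 8.03, 8.34 and 8.58 in the p66-/- replicates, a difference of 0.37 ± 0.13 (SE, adjusted p = 0.305). The dimmer gave means of 4.61 ± 0.36 (SD, n = 4) and 4.81 ± 0.42 (adjusted p = 0.732). Most of the transcript is common to all Shc1 products and the probe positions were not given in the sources used here, so these values do not check the genotype. Of the 30 genes closest to Shc1, 25 were measured and 0 were called, while 3 had an unadjusted p under 0.05, against 11.3% of all genes.

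Of the named genes called higher, Ccn1, a secreted matrix-associated protein and a classical target of the YAP and SRF transcription factors, had levels of 8.73, 9.31, 9.81 and 8.71 in WT cells and 11.9, 9.88, 11.6 and 11.6 in p66-/- cells. Each p66-/- array lay above each WT array, although replicate 2 did so by little. The difference was 2.09 ± 0.35 (adjusted p = 0.0167), and a second Ccn1 probe set differed by 2.22 ± 0.50 with an adjusted p of 0.0631. Spry1, a feedback inhibitor of receptor signalling to ERK, was at 6.25, 5.53, 5.72 and 5.81 in WT and at 6.80, 6.46, 7.47 and 7.58 in p66-/- MEFs (difference 1.25 ± 0.23, adjusted p = 0.0228). Cdc42ep3, an effector of the actin-organising GTPase Cdc42, ranged from 6.61 to 6.80 in WT and from 7.07 to 9.51 in p66-/- MEFs (1.76 ± 0.37, adjusted p = 0.047), and its other probe set was called too, with overlapping arrays. Pcdh18, a cell adhesion protocadherin, ranged from 5.69 to 7.64 and from 7.80 to 9.28 (1.73 ± 0.34, adjusted p = 0.0344). Unc5b, a netrin receptor, ranged from 6.42 to 7.29 and from 7.94 to 8.50 (1.21 ± 0.24, adjusted p = 0.0396). This was not the brightest Unc5b probe set over the series, and the brightest was not called. Lurap1l was at 7.33 to 8.13 and 8.35 to 10.5 (1.78 ± 0.32, adjusted p = 0.0228).

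Cdk12, a kinase that phosphorylates the tail of RNA polymerase II, was at 3.74, 4.10, 3.27 and 3.37 in WT and at 6.76, 4.75, 5.86 and 5.75 in p66-/- cells at 1 of its 4 probe sets, a difference of 2.16 ± 0.35 (adjusted p = 0.0117). The other three Cdk12 probe sets differed by 0.33 to 0.41 and were not called. Nfkbiz, a nuclear regulator of NF-κB target genes, was at 5.42, 5.91, 5.21 and 4.83 in WT and 6.40, 6.79, 6.61 and 6.51 in p66-/- MEFs (1.24 ± 0.23, adjusted p = 0.0231), whereas its brightest probe set differed by 1.43 ± 0.54 (adjusted p = 0.331). Hexim1, an inhibitor of the elongation factor P-TEFb, averaged 6.13 ± 0.35 (SD, n = 4) in WT and 7.17 ± 0.32 in p66-/- MEFs (adjusted p = 0.0335). Skp2, the ubiquitin ligase subunit that directs the cell-cycle inhibitor p27 to degradation, was at 7.46, 6.89, 7.64 and 7.78 in WT and at 8.51, 7.79, 8.50 and 8.53 in p66-/- MEFs (0.89 ± 0.19, adjusted p = 0.047).

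Acta2, smooth muscle actin, was called at a probe set with levels of 3.27 to 3.37 in WT and 3.81 to 5.64 in p66-/- MEFs (1.39 ± 0.29, adjusted p = 0.047), while its bright probe set averaged 13.2 in WT and 13.3 in p66-/- MEFs (0.10 ± 0.05, adjusted p = 0.528). The centrosomal gene Ninl averaged 3.58 ± 0.53 and 4.82 ± 0.49 (adjusted p = 0.0231), Zmym1 4.72 ± 0.35 and 5.88 ± 0.30 (adjusted p = 0.0231), and the mitochondrial RNA-trimming enzyme Pde12 4.81 ± 0.26 and 5.96 ± 0.28 (SD, n = 4, adjusted p = 0.0407). A brighter Pde12 probe set was called too, at 6.57 ± 0.37 and 7.68 ± 0.34 (1.11 ± 0.19, adjusted p = 0.0178). The median over all probe sets in WT cells after H2O2 was 4.42, above the WT level of Ninl and of the called Cdk12 and Acta2 probe sets and below those of Zmym1 and Pde12. The largest difference of all, 3.09, and the smallest adjusted p among probe sets called higher, 0.000356, belonged to a pair of probe sets to which no single gene was assigned here.

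Of the 8 genes called lower in p66-/- cells, Atf3, a transcription factor induced by many stresses, was at 8.38, 9.13, 8.77 and 8.30 in WT and at 6.19, 8.10, 7.19 and 7.29 in p66-/- cells. The groups did not overlap, with p66-/- replicate 2 again the closest to WT, and the difference was -1.45 ± 0.27 (adjusted p = 0.0256). Bbc3, the pro-apoptotic protein also called Puma and a p53 target, was at 8.44, 8.57, 8.46 and 8.59 in WT and at 6.41, 7.96, 7.44 and 7.37 in p66-/- MEFs (-1.22 ± 0.24, adjusted p = 0.0335). The WT arrays lay close together for this gene (SD 0.08, n = 4) and the p66-/- arrays far apart (SD 0.64, n = 4). Ppp1r10, a nuclear targeting subunit of protein phosphatase 1, ranged from 8.84 to 9.48 in WT and from 7.25 to 8.79 in p66-/- MEFs (-1.05 ± 0.22, adjusted p = 0.047), and its second probe set was called as well (-0.99 ± 0.20).

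Nfe2l2, which encodes the antioxidant transcription factor Nrf2, had the smallest adjusted p of the named genes, 0.00232, at a dim probe set. There the levels were 4.20, 4.24, 3.95 and 4.20 in WT and 2.92, 3.59, 2.92 and 3.13 in p66-/- cells (-1.003 ± 0.134). The bright Nfe2l2 probe set averaged 9.56 in WT and 9.42 in p66-/- cells and was not called (adjusted p = 0.793). Cyp27b1, the enzyme that activates vitamin D, ranged from 4.07 to 4.31 and from 3.13 to 3.88 (-0.67 ± 0.12, adjusted p = 0.0228). Both ranges lay below the median of 4.42 over all probe sets in WT. Rnd2, a small GTPase, ranged from 6.66 to 7.62 and from 5.82 to 6.51 (-0.79 ± 0.16, adjusted p = 0.047). The remaining pair, 2810013P06Rik and B330016D10Rik, differed by -1.08 ± 0.22 and -0.83 ± 0.13. The lowest adjusted p of the whole comparison, 8.07e-06, was that of a probe set at 4.36 in WT and 3.35 in p66-/- cells, with no single gene assigned to it.

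**Figure D2:**
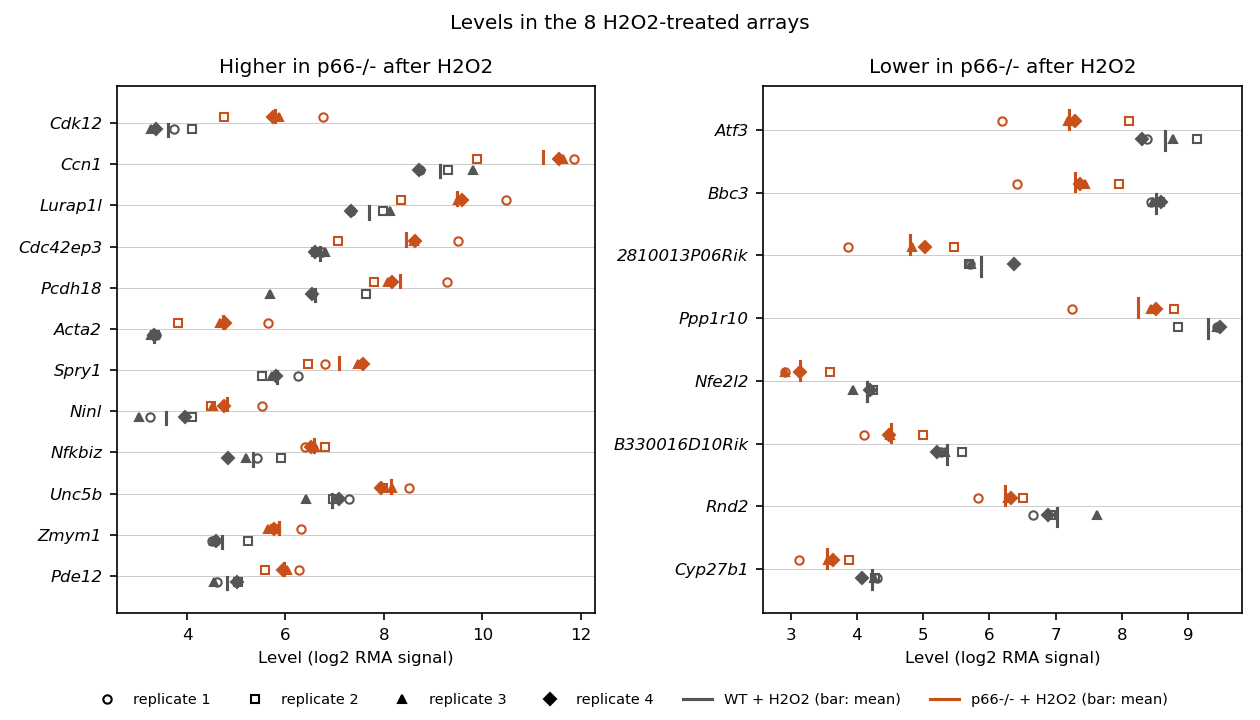
Level of each of the 12 genes with the largest called positive difference (left) and of the 8 called lower (right) in each H2O2-treated array, on the log2 scale of the x axis. WT arrays are grey, p66-/- arrays orange, symbols give the replicate number and vertical bars the group means; no p66-/- array overlaps the WT arrays in any row, and p66-/- replicate 2 is mostly the one closest to them.

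For these 20 genes the exact permutation test over the 8 arrays gave a two-sided p of 0.0286 each, the smallest that 4 against 4 arrays allow, which follows from the requirement that the groups do not overlap. Over all probe sets, 5.63% had groups that did not overlap, 986 with p66-/- above (2.19%) and 1550 with p66-/- below (3.44%). The same direction was found for all 80 called probe sets within replicates 1 and 2 and within replicates 3 and 4. For 75 of the 80 this follows from groups that did not overlap. All 80 were chosen on these same arrays, so the shared direction is no separate support. For the 66 called higher the median difference was 0.90 in the former and 1.01 in the latter, and for the 14 called lower it was -0.98 and -0.97.

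**Figure D3:**
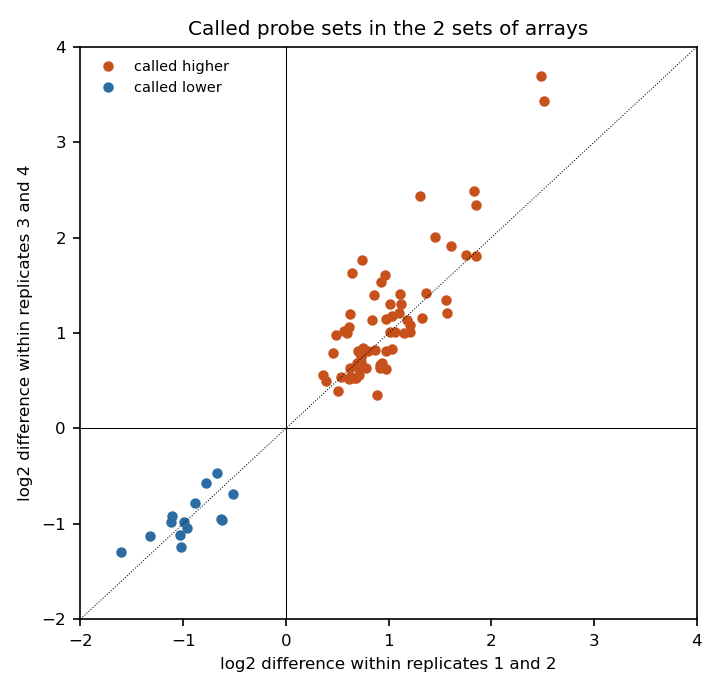
Difference between p66-/- and WT cells after H2O2 within replicates 1 and 2 (x axis) and within replicates 3 and 4 (y axis), both log2, for the 80 called probe sets. The 66 called higher all lie above 0 on both axes and the 14 called lower all below 0, and the dotted line marks equal differences. The probe sets were chosen on these same arrays.

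The sequences before the transcription start of 3 of these genes are given because Ccn1 had the largest called difference upward, and Atf3 and Bbc3 the largest downward, among named genes with a WT mean above 8. Each is the 250 bases ahead of a RefSeq start in GRCm38.p6, read on the gene's own strand. The windows are chr3:145649986-145650235 (minus strand) for Ccn1, chr1:191183334-191183583 (minus strand) for Atf3 and chr7:16310181-16310430 (plus strand) for the Bbc3 start, of 3 listed, whose window holds the most matches. Capitals mark matches to 7 motifs searched on both strands, namely the CCAAT box, the cell-cycle element TTTGAA, the cyclic AMP response element TGACGTCA, the AP-1 site TGACTCA, the E-box CACGTG, the E2F site TTTCCCGC and the forkhead site GTAAACA.
Ccn1: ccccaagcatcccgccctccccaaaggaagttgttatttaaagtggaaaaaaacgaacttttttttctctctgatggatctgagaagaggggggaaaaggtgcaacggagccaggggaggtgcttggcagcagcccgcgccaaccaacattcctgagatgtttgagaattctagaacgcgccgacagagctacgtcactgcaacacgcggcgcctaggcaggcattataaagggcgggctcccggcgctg
Atf3: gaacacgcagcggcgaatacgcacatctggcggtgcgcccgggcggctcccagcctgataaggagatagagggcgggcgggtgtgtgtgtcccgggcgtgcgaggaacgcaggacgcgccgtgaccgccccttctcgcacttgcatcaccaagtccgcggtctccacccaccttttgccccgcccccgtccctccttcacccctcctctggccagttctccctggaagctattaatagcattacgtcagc
Bbc3: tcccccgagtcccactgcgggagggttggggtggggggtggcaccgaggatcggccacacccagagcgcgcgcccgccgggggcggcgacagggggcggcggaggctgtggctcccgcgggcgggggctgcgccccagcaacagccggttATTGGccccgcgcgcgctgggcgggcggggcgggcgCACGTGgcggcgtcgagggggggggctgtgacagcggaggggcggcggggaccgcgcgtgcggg

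The windows of Ccn1 and Atf3 held none of these motifs. The Bbc3 window held a CCAAT match on the opposite strand, written ATTGG, ending 96 bases before the start, and a CACGTG match ending 59 bases before it. Of the 46 genes called higher 40 had a RefSeq start, and 14 of them (35.0%) held CCAAT, against 39.6% of the 13605 measured genes with one. TTTGAA was found in 4 of the 40 (10.0%, against 14% of all) and CACGTG in 2 (5.0%, against 8.75%), and the other 4 motifs in 0. Of the 7 genes called lower that had a start, 3 held CCAAT (42.9%), and the cell-cycle element, the E-box and the forkhead site, the last found in 3.01% of all measured genes, were held by 1 each (14.3%). With so few genes these shares were not tested, and a match or its absence is a description of these letters alone.

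Genes were next read by lists, 1 probe set per gene, the brightest over the series. Over all 17097 genes the median difference was -0.06, 36.1% of the differences were positive, 35 genes were called higher (0.205%) and 7 lower (0.0409%). With the replicate block 224 were called higher (1.31%) and 82 lower (0.480%).

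Of 36 targets of p53 measured, 1 was called, Bbc3, with or without the block. A negative difference with an unadjusted p under 0.05 was found for 14, against 6.38% of all genes (and 4.94% with a positive one), and a positive difference of any size for 4 (11.1%). Their median was -0.34, and it was negative for each of the 4 replicate numbers, from -0.20 for number 2 to -0.44 for number 1. Ppm1d, a phosphatase that switches off the damage response, averaged 7.95 ± 0.34 (SD, n = 4) in WT and 7.26 ± 0.36 in p66-/- MEFs (adjusted p = 0.152). The cell-cycle inhibitor Cdkn1a, known as p21, was at 11.6, 12.3, 11.5 and 11.6 in WT and at 10.9, 11.9, 11.1 and 11.2 in p66-/- cells, so that the groups overlapped (-0.49, adjusted p = 0.43). As p53 targets are a subject of the study on these same arrays, the direction of the list is no independent evidence.

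Other stress lists had smaller medians. The integrated stress and unfolded protein list (29 genes) had a median of -0.04 and 0 calls, or 1 with the block, Ppp1r15a, the phosphatase subunit that restores translation after stress, at 9.12, 8.90, 9.23 and 9.05 in WT and 7.88, 8.89, 8.07 and 8.20 in p66-/- MEFs (-0.82 ± 0.19, adjusted p = 0.068, with the block 0.0356). The 26 Nrf2 antioxidant genes had a median of -0.10 and 0 calls. With the block Osgin1 was called (-0.45 ± 0.16, adjusted p = 0.281 without and 0.0211 with it), and Hmox1, heme oxygenase, averaged 9.51 ± 0.44 and 8.60 ± 0.58 (adjusted p = 0.334, with the block 0.183). Sel1l, of endoplasmic reticulum quality control, differed by 0.31 ± 0.12 (adjusted p = 0.358). Of the 19 genes of FoxO signalling, quiescence and autophagy 3 had positive differences (median -0.16). Foxo3 averaged 8.94 ± 0.28 in WT and 8.17 ± 0.48 in p66-/- MEFs (adjusted p = 0.197, with the block 0.0479). Gabarapl1, an autophagosome protein, differed by -0.39 ± 0.10 (adjusted p = 0.0977, with the block 0.0537).

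In the heat shock list (19 genes, median 0.16) 0 were called. Its inducible chaperone Hspa1b averaged 7.92 ± 0.74 in WT and 9.49 ± 0.88 in p66-/- MEFs (adjusted p = 0.14), and Hspb8 differed by -0.45 ± 0.19 (adjusted p = 0.423). The 27 hypoxia and glycolysis genes had a median of -0.09 and 0 calls, or 2 with the block, Adm and Ankrd37. Adm, a vasoactive peptide, was at 5.10, 5.71, 5.51 and 5.21 in WT and 7.54, 5.76, 7.46 and 7.48 in p66-/- MEFs (1.68 ± 0.36, adjusted p = 0.051, with the block 0.0211). Ankrd37 differed by 0.46 ± 0.17 (adjusted p = 0.319, with the block 0.0315), and Ndrg1 averaged 8.81 ± 0.42 and 8.05 ± 0.66 (adjusted p = 0.287). The 23 immediate early genes had a median of -0.06, with Atf3 the 1 called, and Klf2 averaged 4.72 ± 0.28 and 5.41 ± 0.51 (adjusted p = 0.245).

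Each of the 17 YAP and SRF genes had a positive difference (median 0.38), with a positive median for each replicate number, from 0.22 to 0.43. Like the other lists, this one was chosen with earlier results of these data known, so its shared direction is no independent evidence. Ccn1 was called, and with the block also Amotl2, which binds and restrains YAP, at 9.43, 9.61, 9.37 and 9.05 in WT and 10.7, 10.0, 9.74 and 9.85 in p66-/- MEFs (0.70 ± 0.17, adjusted p = 0.0789, with the block 0.0155). Of the 15 genes of ERK feedback and its ligands 12 had positive differences (median 0.25) and Spry1 was called. Dusp6, a phosphatase of ERK, was at 6.63, 7.78, 5.72 and 5.71 in WT and 7.80, 7.73, 8.59 and 8.64 in p66-/- MEFs (1.73 ± 0.48, adjusted p = 0.138, with the block 0.0782). The median of the ERK list was 1.14 and 0.93 for replicate numbers 3 and 4 but 0.00 and -0.33 for numbers 1 and 2, so the positive median came from replicates 3 and 4.

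Among 22 TGF-beta and BMP genes 17 had positive differences (median 0.20). Without the block 0 were called, and with it 4 were called higher, Id1, Id2, Id3 and Bambi. The Id genes encode inhibitors of basic helix-loop-helix factors and are direct BMP targets, and Bambi is a pseudoreceptor for the same pathway. Id3 was at 7.09, 6.91, 9.26 and 8.74 in WT and at 10.4, 7.76, 10.8 and 10.7 in p66-/- cells, overlapping between but not within replicate numbers (1.93 ± 0.52, adjusted p = 0.132, with the block 0.0208). Bambi was at 5.14, 4.88, 6.21 and 5.73 in WT and at 6.95, 5.71, 7.88 and 7.88 in p66-/- MEFs (1.61 ± 0.38, adjusted p = 0.07, with the block 0.00894). In the matrix list 35 of 44 genes had positive differences (median 0.27), 0 were called, and with the block Adamts1, a secreted metalloprotease, was (1.22 ± 0.39, adjusted p = 0.227, with the block 0.0486). The basement membrane collagen Col4a1 averaged 10.96 ± 0.26 and 11.54 ± 0.28 (adjusted p = 0.136).

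The Shc adaptors and partners (18 genes, median 0.11) included receptors and docking proteins to which Shc binds. Of the 18 differences 13 were positive. The lowest was that of the receptor Pdgfra, at -0.68 ± 0.30 (adjusted p = 0.425), with the p66-/- arrays just below all WT arrays. Igf1r, the receptor of insulin-like growth factor, was at 8.25, 7.85, 7.75 and 8.34 in WT and 9.30, 8.70, 8.90 and 8.91 in p66-/- cells, with no overlap (0.91 ± 0.19, adjusted p = 0.0501, with the block 0.023). The insulin receptor Insr averaged 5.96 ± 0.26 and 6.63 ± 0.44 (adjusted p = 0.16, with the block 0.0674), and the docking protein Irs1 differed by 0.76 ± 0.28 (adjusted p = 0.312, with the block 0.0271).

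Cell-cycle lists held few calls. Of 42 genes of G1-S and replication Skp2 was called (median 0.03). With the block 3 were, adding Slbp, which binds histone messenger RNA, at 8.31 to 8.88 in WT and 8.92 to 9.75 in p66-/- MEFs (0.80 ± 0.17, adjusted p = 0.0542, with the block 0.00992), and the exonuclease gene Exo1 (1.26 ± 0.36, adjusted p = 0.157, with the block 0.0233). Of 57 genes of G2 and mitosis 0 were called, or 1 with the block, 40 had a positive difference and the median was 0.18. It was -0.10 for replicate number 1 and 0.30 for number 3. The 1 was Cenpf, a kinetochore protein, at 4.66 to 6.80 in WT and 6.33 to 7.21 in p66-/- MEFs, which overlap (0.92 ± 0.46, adjusted p = 0.508, with the block 0.041). Fbxo5, an inhibitor of the anaphase-promoting complex, averaged 6.74 ± 0.94 in WT and 7.86 ± 0.51 in p66-/- MEFs (adjusted p = 0.2, with the block 0.0516). Mki67, a proliferation marker, was at 8.36, 7.69, 5.72 and 7.70 in WT and 9.17, 8.26, 8.23 and 8.31 in p66-/- MEFs (1.13 ± 0.48, adjusted p = 0.41), with WT replicate 3 the lowest.

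**Figure D4:**
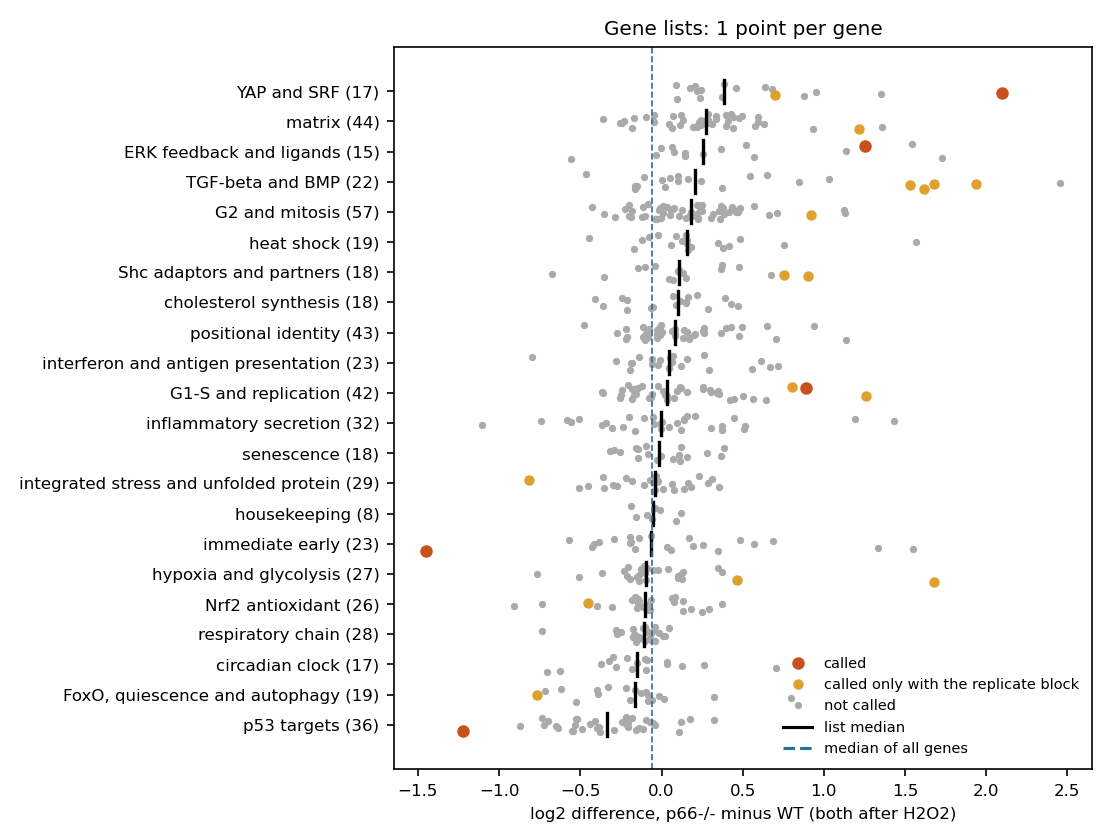
Difference between p66-/- and WT cells after H2O2 (x axis, log2) for each measured gene of the gene lists (rows, number measured in brackets), at the brightest probe set of the gene. The lists were chosen with earlier results of these data known. Black bars are list medians, from -0.34 for p53 targets to 0.38 for YAP and SRF genes, beside the median of all genes at -0.06 (dashed); dark orange points were called and light orange points were called only with the replicate block.

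In the remaining lists 0 genes were called at their brightest probe set, with or without the block. Inflammatory secretion (32 genes) had a median of 0.00, and its Csf2, a cytokine gene, differed by -0.31 ± 0.10 (adjusted p = 0.22). Nfkbiz, called at a dimmer probe set as given above, is also in this list, at 1.43 ± 0.54 (adjusted p = 0.331) for its brightest. Interferon and antigen presentation (23 genes) had a median of 0.05, with the immunoproteasome subunit Psmb9 at -0.80 ± 0.29 (adjusted p = 0.309) and the RNA sensor Ifih1 at 0.71 ± 0.35 (adjusted p = 0.497). Cholesterol synthesis (18 genes) had a median of 0.10 that was -0.86 for replicate number 1 and 0.30 to 0.41 for the others, with Sc5d at 0.39 ± 0.15 (adjusted p = 0.329) and Mvk at -0.41 ± 0.22 (adjusted p = 0.541). The circadian clock list (17 genes) had a median of -0.15, with Per1 at -0.32 ± 0.14 (adjusted p = 0.412) and Bhlhe40 at -0.62 ± 0.31 (adjusted p = 0.506). Senescence genes (18) had a median of -0.02, with Ezh2 at 0.37 ± 0.19 (adjusted p = 0.522) and Rbl1 at 0.38 ± 0.20 (adjusted p = 0.524).

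Genes of positional identity (43, median 0.08) included Tbx15 and Emx2, developmental transcription factors that mark the body region a fibroblast came from, at 0.65 ± 0.18 (adjusted p = 0.132) and 1.14 ± 0.34 (adjusted p = 0.174), both with p66-/- arrays above all WT arrays. Untreated WT and p66-/- cells averaged 7.91 and 7.94 for Tbx15 and 7.03 and 7.11 for Emx2. In this list the p66-/- arrays lay wholly above WT for 3 genes and wholly below for 1, against 317 and 653 of all 17097 genes. Of the 28 respiratory chain genes 3 had positive differences (median -0.11). Nnt, the mitochondrial transhydrogenase that supplies NADPH, was at 9.40, 9.40, 9.91 and 10.01 in WT and 8.55, 9.33, 9.03 and 8.86 in p66-/- cells, not overlapping (-0.74 ± 0.22, adjusted p = 0.177), and averaged 9.70 and 9.03 in the untreated cells. The C57BL/6J strain is known to carry a defective Nnt, and whether strain had a part in this difference was not tested.

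Of the 7 fibroblast markers Vim was the brightest and Col1a2 the dimmest, and their summed signal was 14800 to 18000 in WT and 16200 to 17300 in p66-/- arrays, on the linear scale, with 0 called. The collagen gene Col1a2 averaged 4.65 ± 1.15 in WT and 6.01 ± 0.78 in p66-/- MEFs (adjusted p = 0.371), and the growth factor receptor Pdgfra 6.14 ± 0.62 and 5.47 ± 0.07 (adjusted p = 0.425). The WT level of this Col1a2 probe set lay near the median of 4.42 over all probe sets, and which part of the transcript it reads was not known here. Markers of red cells, endothelium and liver summed to at most 106 in any of the 8 arrays. Leukocyte markers (8 genes, 0 called, median difference 0.56) summed to 331 to 3250 in WT and 1060 to 2440 in p66-/- arrays, which overlap, with Lyz2 the brightest and Ptprc, the pan-leukocyte marker CD45, at 3.77 to 4.52 and 4.32 to 5.38 (adjusted p = 0.325). Sums for cartilage and bone were 224 to 847 in WT and 241 to 296 in p66-/- arrays, for muscle 221 to 452 and 201 to 542, for epithelium 201 to 373 and 225 to 370, for neural cells 117 to 157 and 101 to 235 and for fat cells 68.4 to 113 and 62.8 to 233. In these lists, too, 0 genes were called, and the pair of lowest p in each (Alas2 and Gata1, Tek and Cldn5, Ttr and Alb, Comp and Ibsp, Myog and Tnni1, Krt8 and Krt14, Nes and Sox10, Adipoq and Pparg) differed by between -0.68 for Adipoq and 0.35 for Krt8. Housekeeping genes (8) had a median difference of -0.05, with Actb at 0.09 ± 0.06 and Ywhaz at -0.19 ± 0.20. Among sex-linked genes Xist spanned 8.31 to 10.8 over the 8 arrays and Eif2s3y 5.52 to 8.71, Uty 2.83 to 5.92, Kdm5d 4.18 to 5.81, Zfy1 3.96 to 4.48 and Usp9y 3.53 to 3.90, with ranges that overlapped between genotypes. In arrays of cell mixtures, fewer cells of a kind and less RNA per cell cannot be told apart.

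For reference, the untreated cells place these stressed levels. At all 80 called probe sets the H2O2-treated p66-/- mean lay on the same side of the H2O2-treated WT mean as the untreated WT mean did, and at 67 of them it lay between these WT means. Atf3 averaged 5.79 in untreated WT and 6.06 in untreated p66-/- cells, Bbc3 6.33 and 6.36, Ccn1 11.5 and 11.9 and Spry1 7.43 and 7.52. These counts share the H2O2-treated WT arrays with the comparison that chose the probe sets and carry no test. The test of the difference itself, of whether the gap between genotypes after H2O2 differed from the gap before it, had an adjusted p under 0.05 for 0 of the 82 named probe sets in limma, with or without the block, and for 1 of all 45037 (0.00222%). That 1 was the probe set without a single gene that had the lowest adjusted p of the comparison (here 0.00178, with the block 0.00137). At an unadjusted p under 0.05 the test was passed by 40 of the 82 and 78 of the 80 called probe sets, against 1375 of all (3.05%), and these counts share the H2O2 arrays that chose the members. So a dependence of the named gaps on H2O2 was not established at 4 arrays per group.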

How the data were processed

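RNA of H2O2-treated WT and p66-/- MEFs was measured on Affymetrix MG-430 PM strip arrays. The authors normalised the arrays with RMA in Partek 6.5, and the deposited log2 values run from 1.95 to 13.5; no counts exist, so that the number of arrays limits precision. The 104 array controls were left out. Probe sets were named from the platform's annotation with RefSeq symbols of GRCm38.p6: of 45037 tested, 28898 had 1 symbol (17097 genes), 551 several and 15588 none. Differences were tested with limma 3.58.1 in R 4.3.3 (8 group means, 28 arrays, empirical Bayes, Benjamini-Hochberg adjustment over all probe sets), after the scripts had been tested on simulated data. The p53-/- arrays entered only the spread and the choice of the brightest probe set per gene. Exchanging the treatments of both whole p53-/- groups would change neither, but exchanging single arrays would change the spread. Within each replicate number 1 to 4, p53-/- cells labelled H2O2-treated were nearer to untreated WT than to H2O2-treated WT cells. The SD of differences was 0.36, 0.39, 0.25 and 0.23 to untreated WT, and 0.48, 0.50, 0.53 and 0.42 to H2O2-treated WT cells. Those labelled untreated stood at 0.38, 0.40, 0.39 and 0.44 from H2O2-treated WT cells. From untreated WT cells they stood at 0.43, 0.43, 0.39 and 0.49. Whether these labels are right was not tested. Errors are SE of the fit for differences and SD for group means, and p-values measure the spread between these arrays.

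Named genes were Shc1, the 12 largest called differences each way whose arrays did not overlap (8 passed for lower), the 2 genes of lowest p in each list, called genes near Shc1, and sex-linked genes by range. Hexim1, Cdkn1a, Cenpf, Ankrd37 and other list members outside that rule, and the 3 probe sets without a gene name, were chosen after their values were seen. The lists and members were chosen with earlier results of these data known. The replicate numbers were taken to pair the arrays, because deviations from the group means correlated at 0.30, 0.67, 0.70 and 0.43 for numbers 1 to 4. Arrays 1 and 2 against 3 and 4 carry most of that, since WT replicate 1 correlated more with p66-/- replicate 2 (0.48). Alternatives were the replicate block, blocks and subsets of arrays, other variance estimates, the methods' t-test, array weights, filters, renormalisation, thresholds and leaving out each array. Promoter sequences are RefSeq's (GRCm38.p6).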

Additional observations from a re-analysis of the deposited data

Results flagged for a closer look

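Over the 82 named probe sets, 164 groups of 4 arrays were examined for 1 array far from the other three (Dixon's ratio of the gap to the range, above its 95% critical value), and 19 passed, where chance flags about 1 group in 20. In the p66-/- group replicate 2 stood apart for 5 genes, Ccn1 (9.88 against 11.6 to 11.9, ratio 0.849), Skp2 (7.79 against 8.50 to 8.53, 0.96), Id3 (7.76 against 10.4 to 10.8, 0.879), Adm (5.76 against 7.46 to 7.54, 0.958) and Ywhaz (11.98 against 11.4, 0.933). For Ccn1, Skp2, Id3 and Adm it was the array nearest to WT. Replicate 1 stood apart for Mki67 (9.17 against 8.23 to 8.31, ratio 0.921), Sel1l (8.78 against 8.14 to 8.23, 0.864), Adamts1 (8.99 against 7.48 to 7.60, 0.923) and Bhlhe40 (6.84 against 8.66 to 8.98, 0.852).

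In the WT group replicate 2 stood apart for Zmym1 (5.24 against 4.51 to 4.58, ratio 0.896), Ppp1r10 (8.84 against 9.43 to 9.48, 0.92), Ptprc (4.52 against 3.77 to 3.90, 0.8293, just past that value), Sox10 (5.08 against 5.41 to 5.46, 0.886) and Tnni1 (5.32 against 5.97 to 6.08, 0.848). Replicate 3 did so for Nfe2l2 (3.95 against 4.20 to 4.24, 0.838) and Mvk (7.10 against 6.75 to 6.81, 0.834). Replicate 4 did so for 2810013P06Rik (6.37 against 5.69 to 5.72, 0.955), Gabarapl1 (9.70 against 9.86, 0.968) and Rbl1 (7.46 against 6.64 to 6.73, 0.897).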

How the results depend on the processing

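The direction of all 80 called probe sets held in every fit that tested them, each of which used arrays that had chosen them, but the number called did not. Against 80, the replicate block gave 616 and a block for arrays 1 and 2 against 3 and 4 gave 553, array weights 731, and leaving out the dimmest 40% of probe sets 148. Robust estimation with a trend gave 46, further quantile normalisation 45 (30 higher and 15 lower), and p66-/- replicates 3 and 4 as 1 sample 8. The 8 H2O2 arrays alone, the same 8 paired by replicate block, the methods' t-test after adjustment, and replicates 1 and 2 alone each gave 0, with 3757, 6918, 3819 and 3628 at an unadjusted p under 0.05. The 16 untreated and H2O2 arrays of WT and p66-/- cells gave 2, and replicates 3 and 4 alone 1217. The calls therefore depend on how the spread is estimated; the cause was not tested. Leaving out 1 array gave 5 (without p66-/- replicate 1) to 598 (without p66-/- replicate 2). Of the 80, 5, 80, 8 and 8 stayed called without p66-/- replicates 1 to 4 and 28, 66, 27 and 28 without WT replicates 1 to 4. Without WT replicate 1 the split was 25 higher and 25 lower.

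At the study's thresholds, against 1110 probe sets, replicates 3 and 4 alone gave 2285, the methods' t-test 609, 1 probe set per gene 441, a 2-fold threshold 229 and 1.5-fold at an adjusted p 73. Leaving out 1 array gave 587 (without p66-/- replicate 1) to 1648 (without p66-/- replicate 2), and the replicate block gave 1597. The dependence on H2O2, passed by 0 named probe sets, was passed by 20 with replicates 3 and 4 alone, by 7 with array weights and by 0 to 6 on leaving out 1 array, with 6 without p66-/- replicate 2. The sign turned only for genes that were not called. Bhlhe40 was 0.0727 in replicates 3 and 4. In replicates 1 and 2 Krt8 was -0.0016, Krt14 -0.16 and Myog -0.0548. Tnni1 was 0.15 in replicates 3 and 4 and 0.0627 with array weights. With array weights Pparg was 0.16, and on leaving out 1 array it ranged from -0.17 to 0.0805 and Krt14 from -0.0351 to 0.30. Nfe2l2 stayed called without any 1 of the 8 arrays. With the replicate block all 80 were among the 616 called.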
